A study of Caenorhabditis elegans with 6 samples.

Results

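The fatty acid elongases of Caenorhabditis elegans were examined in RNA-seq counts from pools of whole adult worms. The genes were taken from the count table by name: elo-1, elo-2, elo-3, elo-4, elo-5, elo-6, elo-7 and elo-9, which are 8 of the 22407 genes with counts. All 6 libraries came from strain AM140, which carries the transgene rmIs132 [unc-54p::Q35::YFP]. The unc-54 promoter is active in body wall muscle, where it drives a polyglutamine stretch joined to a yellow fluorescent protein. Worms ate HT115 bacteria carrying an empty vector (EV, 3 libraries) or a gtr-1 3'UTR RNAi construct (called gtr-1 RNAi here, 3 libraries), at 20 °C for 2 generations. Eggs were taken from day 1 adults by bleaching, and their adults, washed each day to remove progeny, were collected on day 6. Per the series title, the study asks how a neuronal G protein-coupled receptor acts through neuropeptide signalling on protein homeostasis in distant tissues.

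Elongases catalyse the condensation step of a cycle that lengthens an acyl-CoA with carbons from malonyl-CoA in the membrane of the endoplasmic reticulum. A ketoacyl reductase, a dehydratase and an enoyl reductase complete each turn. In worms, ELO-1 and ELO-2 act on straight-chain and polyunsaturated acids, ELO-2 also on palmitate, and ELO-5 and ELO-6 lengthen the monomethyl branched-chain acids that the animal builds from leucine. Those branched acids enter the sphingoid bases of the worm and are needed for growth. ELO-3, ELO-4, ELO-7 and ELO-9 belong to the family by sequence.

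Total counts per library ran from 33254426 to 41902475. The first principal component of log2 CPM (counts scaled to library size) held 72.7% of the variance and placed gtr-1 RNAi replicate 3 at -6.62, between the EV libraries (-40.6 to -19.2) and gtr-1 RNAi replicates 1 and 2 (41.8 and 59.9). The targeted gene gtr-1 had 16, 25 and 20 counts in EV replicates 1, 2 and 3 and 20, 24 and 19 in gtr-1 RNAi replicates 1, 2 and 3 (edgeR log2 fold change -0.0100 ± 0.28 SE, adjusted p = 0.986). The depth-corrected ratio of summed gtr-1 counts was 0.991 (95% exact binomial interval 0.686 to 1.43, counting error only). A ratio below 0.686 lies outside this interval, whereas a smaller reduction could not be detected at this depth. The groups below are those of the labels. The design text speaks of 3 sets of worms without saying whether they were raised apart, so the spread between replicates that enters each p-value may be technical.

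The elongases were unequal in level under EV. Levels are given as TMM-scaled RPKM, counts scaled to library size and to the kilobases of merged exon, which allows comparison between genes. The gene elo-1 was at 199 ± 0.925 RPKM (SD, n = 3), elo-6 at 87.5 ± 8.39, elo-3 at 71.6 ± 5.12, elo-5 at 44.0 ± 3.96 and elo-2 at 28.7 ± 4.83 RPKM. The other members were scarce: elo-4 stood at 3.57 ± 0.195 RPKM, elo-9 at 2.38 ± 0.602 RPKM and elo-7 at 0.0306 ± 0.0356 RPKM. No 2 neighbours in this order had overlapping ranges under EV.

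Under gtr-1 RNAi the order of means was elo-1, elo-6, elo-5, elo-3, elo-2, elo-9, elo-4 and elo-7. The gene elo-6 reached 182 ± 59.3 RPKM, with 1 library inside the range of elo-1 (200.7 to 237 RPKM). The gene elo-5, at 86.7 ± 28.5 RPKM, had a higher mean than elo-3, at 81.0 ± 3.86 RPKM, but their ranges overlapped. The ranges of elo-3 and elo-2 (69.9 ± 22.1 RPKM) overlapped as well, and so did those of elo-9 (4.42 ± 1.22 RPKM) and elo-4 (3.45 ± 0.0902 RPKM).

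**Figure D1:**
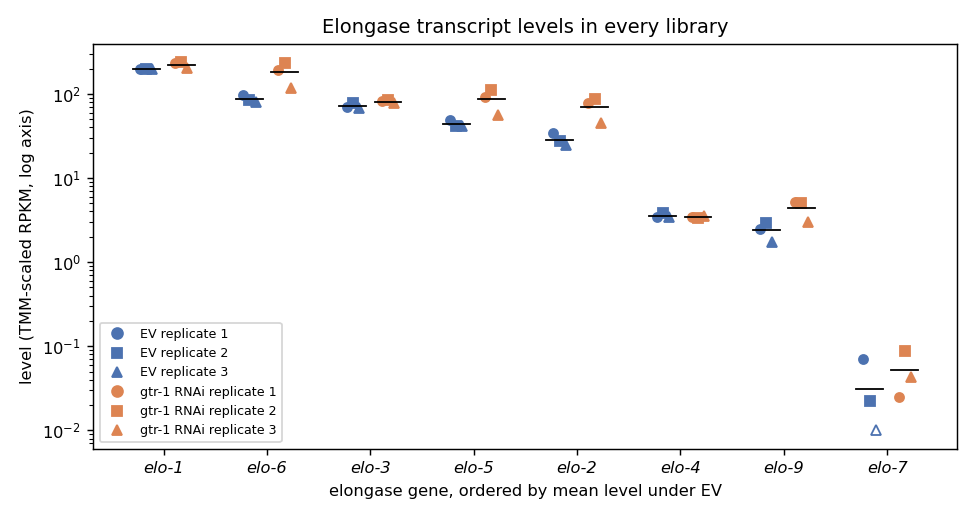
Level of each elongase in TMM-scaled RPKM (log axis) in 3 EV and 3 gtr-1 RNAi libraries, with the group mean as a black line; genes are ordered by their mean under EV. The open triangle marks the EV replicate 3 value of elo-7, which was 0 and is drawn at the foot of the axis. The genes elo-6, elo-5, elo-2 and elo-9 were higher in every gtr-1 RNAi library than in any EV library, and elo-4 overlapped.

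The genes elo-2, elo-5, elo-6 and elo-9 stood about 1.85- to 2.44-fold higher on average under gtr-1 RNAi, while elo-1 and elo-3 differed by 1.12- and 1.13-fold and elo-4 by 0.966-fold. Of the 7 elongases tested, edgeR's quasi-likelihood test called 0 at an adjusted p under 0.05, and it called 0% of the 14683 genes tested higher and 0% lower. The DESeq2 Wald test called 4 of the 7 higher, namely elo-2, elo-5, elo-6 and elo-9, and 0 lower, beside 5.81% of tested genes called higher and 6.61% called lower. Limma-voom called 0 of the 7. With sample quality weights it called 6 higher, all but elo-4, beside 16.1% of tested genes higher and 21.6% lower. The same 6 had an unadjusted p under 0.05 in edgeR, beside 12.9% of tested genes in the higher direction and 15.3% in the lower. In 5 of 7, all but elo-3 and elo-4, the gtr-1 RNAi libraries lay above every EV library, which held for 16.6% of tested genes. None of the 7 lay below every EV library, a pattern of 19.6% of tested genes. The median log2 fold change was 0.89 over the 7 elongases and -0.0025 over all genes tested.

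The branched-chain elongase gene elo-5 (WBGene00001243) occupies bases 5374616 to 5377117 of chromosome IV (build WBcel235, - strand) and has 4 exons. Its level was 48.5, 42.0 and 41.4 RPKM in EV replicates 1, 2 and 3 and 92.7, 112 and 55.7 RPKM in gtr-1 RNAi replicates 1, 2 and 3. The groups did not overlap, and gtr-1 RNAi replicate 3 lay nearest to the EV libraries. The log2 fold change was 0.98 ± 0.27 SE (edgeR, adjusted p = 0.120) and 0.99 ± 0.29 SE by DESeq2 (adjusted p = 0.0102), from 4523 counts under EV and 9232 under gtr-1 RNAi.

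Its companion elo-6 (WBGene00001244), which acts on the shorter of the worm's branched-chain acids to make the longer, lies on the same strand of chromosome IV at 5386629 to 5388559, with 3 exons. Its level was 96.7, 85.3 and 80.3 RPKM in EV replicates 1, 2 and 3. In gtr-1 RNAi replicates 1, 2 and 3 it was 194, 234.6 and 118 RPKM. All 3 labelled libraries were above EV, with replicate 2 the highest and replicate 3 the lowest, as for elo-5. The log2 fold change was 1.06 ± 0.27 SE (edgeR, adjusted p = 0.118) and 1.07 ± 0.29 SE by DESeq2 (adjusted p = 0.00478).

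The straight-chain elongase gene elo-2 (WBGene00001240), whose product lengthens palmitate, lies near the right end of chromosome IV at 17466062 to 17467408, on the - strand, with 5 exons. Its level was 34.0, 27.4 and 24.6 RPKM in EV replicates 1, 2 and 3 and 77.7, 87.1 and 45.0 RPKM in gtr-1 RNAi replicates 1, 2 and 3. This was the widest difference among the 7 tested elongases, at 2.71, 3.04 and 1.57 times the EV mean in the 3 labelled libraries. The log2 fold change was 1.29 ± 0.29 SE (edgeR, adjusted p = 0.112) and 1.30 ± 0.32 SE by DESeq2 (adjusted p = 0.00200). Among all genes tested, 0.981% had a log2 fold change as high or higher, against 1.59% for elo-6 and 1.85% for elo-5.

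The fourth of these genes, elo-9 (WBGene00001247), lies on chromosome II at 14959526 to 14964108 on the - strand. Its level was 2.49, 2.92 and 1.73 RPKM in EV replicates 1, 2 and 3 and 5.26, 4.99 and 3.02 RPKM in gtr-1 RNAi replicates 1, 2 and 3. The groups did not overlap, but gtr-1 RNAi replicate 3 lay just above EV replicate 2. It rested on 312 counts under EV and 590 under gtr-1 RNAi, and the log2 fold change was 0.89 ± 0.27 SE (edgeR, adjusted p = 0.118) and 0.90 ± 0.29 SE by DESeq2 (adjusted p = 0.0191).

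The most abundant elongase gene, elo-1 (WBGene00001239, chromosome IV, 9526366 to 9528336), whose product lengthens polyunsaturated acids on the way to arachidonic and eicosapentaenoic acid, differed little. Its level was 199, 198 and 199.7 RPKM in EV replicates 1, 2 and 3 and 232, 237 and 201 RPKM in gtr-1 RNAi replicates 1, 2 and 3. The groups did not overlap, but gtr-1 RNAi replicate 3 was only 1.01 times the EV mean. The log2 fold change was 0.17 ± 0.061 SE (edgeR, adjusted p = 0.139; DESeq2 adjusted p = 0.0943).

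The gene elo-3 (WBGene00001241, chromosome IV, 7237718 to 7240488) was at 69.9, 77.4 and 67.6 RPKM in EV replicates 1, 2 and 3 and at 81.3, 84.6 and 76.9 RPKM in gtr-1 RNAi replicates 1, 2 and 3. EV replicate 2 exceeded gtr-1 RNAi replicate 3, so the groups overlapped (log2 fold change 0.18 ± 0.059 SE, edgeR adjusted p = 0.126). The gene elo-4 (WBGene00001242, chromosome III, 9332269 to 9334274) was at 3.47, 3.79 and 3.44 RPKM in EV replicates 1, 2 and 3 and at 3.45, 3.35 and 3.54 RPKM in gtr-1 RNAi replicates 1, 2 and 3. Its groups overlapped, with gtr-1 RNAi replicate 2 lowest and EV replicate 2 highest (log2 fold change -0.049 ± 0.13 SE, edgeR adjusted p = 0.833). It had 375 counts under EV and 377 under gtr-1 RNAi, a depth-corrected ratio of 0.965 with a 95% exact binomial interval of 0.834 to 1.12 that covers counting error only.

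The gene elo-7 (WBGene00001245, chromosome IV, 9529947 to 9531400) had 3, 1 and 0 counts in EV replicates 1, 2 and 3 and 1, 4 and 2 counts in gtr-1 RNAi replicates 1, 2 and 3. It did not pass the filter on low counts and was not tested. The ratio of its summed counts was 1.68 (95% exact binomial interval 0.427 to 7.82), so no difference was detectable at this depth. A further gene of the family in the table, elo-8, is not among the 8 members. It had 18 counts in each group and was not tested.

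**Figure D2:**
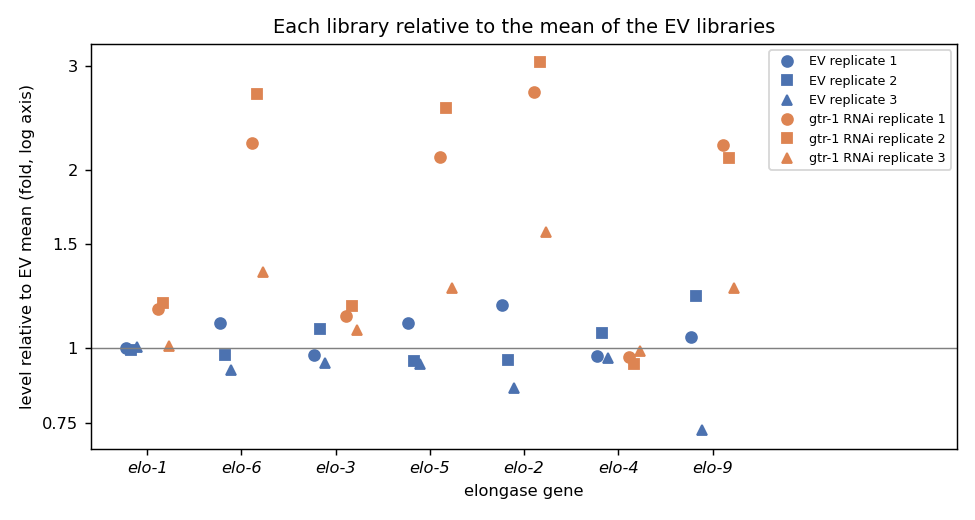
Level of the 7 tested elongases in each library, divided by the mean of the 3 EV libraries (log axis, grey line at 1). The genes elo-2, elo-5, elo-6 and elo-9 reach 2.09 to 3.04 in gtr-1 RNAi replicates 1 and 2 and 1.27 to 1.57 in replicate 3, whereas elo-1 and elo-3 reach at most 1.19.

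The order of the libraries was shared by elo-2, elo-5 and elo-6. In each of them EV replicate 3 was lowest, followed by EV replicates 2 and 1 and by gtr-1 RNAi replicates 3, 1 and 2. In elo-9 the order within each group differed from this. The first principal component of all tested genes placed the libraries in the order of elo-2, elo-5 and elo-6, so that order is not particular to them. It was at -40.6, -35.3 and -19.2 for EV replicates 3, 2 and 1 and at -6.62, 41.8 and 59.9 for gtr-1 RNAi replicates 3, 1 and 2. The share of tested genes with this order was not counted. Calls depended on the libraries included. Without gtr-1 RNAi replicate 3, edgeR called 6 of the 7 elongases, all but elo-4, beside 8.77% of tested genes called higher and 15% lower, and the log2 fold change was 1.52 for elo-2, 1.30 for elo-6 and 1.22 for elo-5. With any 1 other library left out, edgeR called 0 of 7, and 0 of all genes. DESeq2 called elo-2 in 4 of the 6 fits that left out 1 library, elo-3, elo-5, elo-6 and elo-9 in 2 each, and elo-1 in 1. The fit without gtr-1 RNAi replicate 3 was always among these. It called none of the 7 without EV replicate 3 or without gtr-1 RNAi replicate 1.

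**Figure D3:**
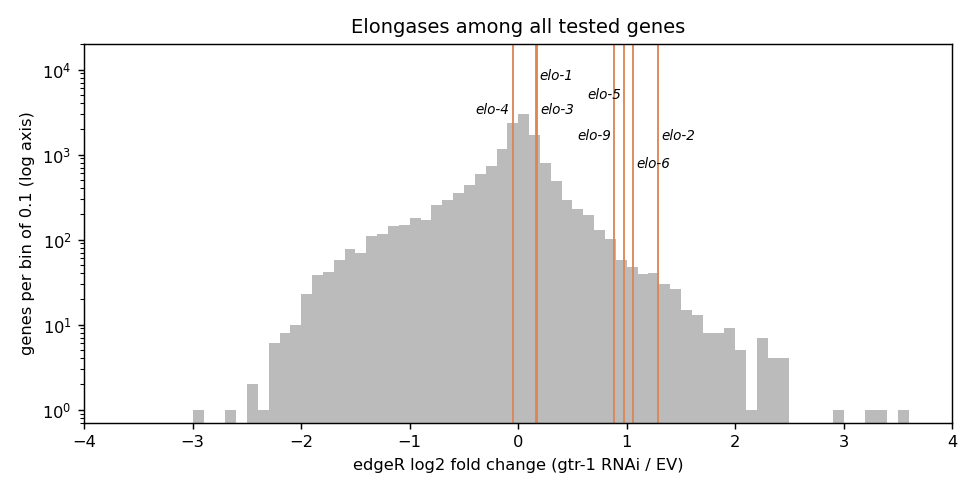
Number of the 14683 tested genes per bin of edgeR log2 fold change (log axis), with orange lines at the 7 tested elongases. The lines of elo-9, elo-5, elo-6 and elo-2 lie at 0.89 to 1.29, in the right shoulder of the distribution, and those of elo-4, elo-1 and elo-3 lie within its centre.

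The make-up of the elongase transcript pool was taken as the share of each gene in the summed RPKM of a library. These shares do not depend on library scaling, whereas the summed level does. The summed level of the 8 genes was 454, 437 and 419 RPKM in EV replicates 1, 2 and 3 and 686, 764 and 503 RPKM in gtr-1 RNAi replicates 1, 2 and 3. The mean log2 level was higher by 0.56, a 1.47-fold difference. All 3 labelled libraries exceeded all EV libraries (exact permutation test, two-sided p = 0.1, the smallest that 3 against 3 libraries can give).

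The share of elo-1 in this pool was 43.8%, 45.3% and 47.7% in EV replicates 1, 2 and 3 and 33.8%, 31.03% and 39.9% in gtr-1 RNAi replicates 1, 2 and 3. Every labelled library thus had a lower share of elo-1, whereas that of elo-6 was 20.0 ± 1.13% under EV and 27.5 ± 3.71% under gtr-1 RNAi. The share of elo-5 was 10.1 ± 0.56% against 13.1 ± 1.82%, and that of elo-2 was 6.54 ± 0.841% against 10.6 ± 1.39%. For elo-3 it was 16.4 ± 1.19% against 12.7 ± 2.25%. None of these shares, nor that of elo-4, overlapped between the groups (exact permutation test, two-sided p = 0.1, adjusted p = 0.133 over 8 shares). The shares are parts of the same sum and depend on one another, so a lower share need not be a lower level. The levels of elo-1, elo-3 and elo-4 were 1.12, 1.13 and 0.966 times those under EV (edgeR fold). The share of elo-9 overlapped, at 0.544 ± 0.128% against 0.673 ± 0.0847% (exact permutation p = 0.3, adjusted p = 0.343), and so did that of elo-7 (exact permutation p = 1, adjusted p = 1).

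**Figure D4:**
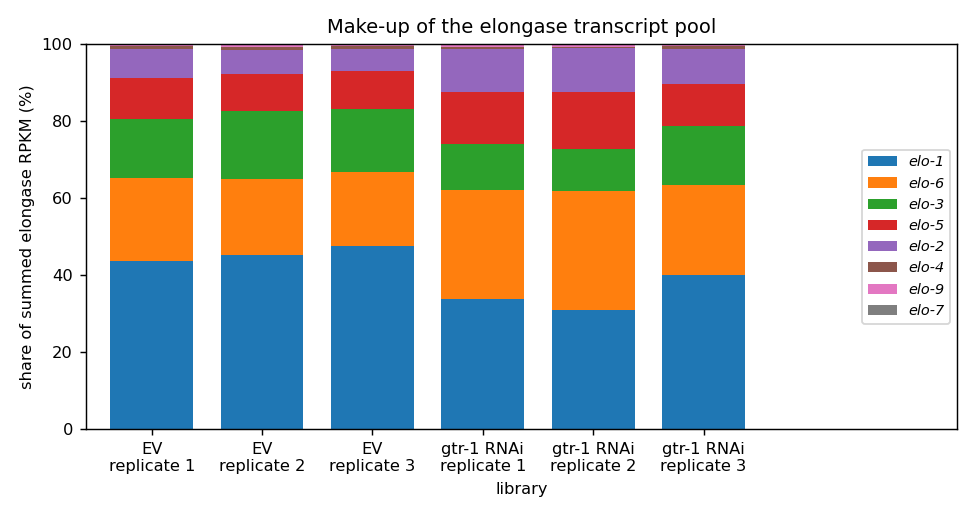
Share of each elongase in the summed elongase RPKM of each library, in percent, as stacked bars that start at 0. The blue block of elo-1 is 43.8% to 47.7% in the EV libraries and 31.03% to 39.9% in the gtr-1 RNAi libraries, while the blocks of elo-6, elo-5 and elo-2 are wider in the latter.

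The ratio within the branched-chain pair varied little. The log2 ratio of elo-5 to elo-6 was -0.99 ± 0.035 under EV and -1.07 ± 0.0071 under gtr-1 RNAi, a difference of -0.082 (exact permutation test, two-sided p = 0.1, adjusted p = 0.1 over 2 ratios). The groups did not overlap, with the ratio lower in all 3 gtr-1 RNAi libraries. Even so, elo-5 stayed near a log2 ratio of -1 to elo-6 in each library, from -1.08 to -0.95, while elo-5 itself ranged from 41.4 to 112 RPKM. The ratio of the straight-chain pair varied more: elo-1 to elo-2 was 2.81 ± 0.24 on the log2 scale under EV and 1.73 ± 0.38 under gtr-1 RNAi, a difference of -1.08 (exact permutation p = 0.1, adjusted p = 0.1).

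Across the 6 libraries, elo-5 and elo-6 were each other's nearest gene in pattern. Likeness was measured as the root mean square difference of centred log2 CPM against 10439 other named genes. It was 0.0459 between elo-5 and elo-6, where the median distance of a gene was 0.551 from elo-5 and 0.584 from elo-6. Next came the cytochrome P450 gene cyp-25A2 for elo-5 (0.0721) and Y38E10A.14 for elo-6 (0.0721). The gene nearest to elo-2 was the lysozyme gene lys-2 (0.0450, log2 fold change 1.25), followed by F28B4.3 (0.0487). The genes nearest to elo-9 were Y47G6A.19 (0.0456) and F22H10.6 (0.0815). For elo-1 they were the vacuolar ATPase gene vha-14 (0.0163) and pat-12 (0.0176), for elo-3 F53H4.4 (0.0270) and C49H3.3 (0.0283), and for elo-4 mtss-1 (0.0184) and the ribosomal protein gene rpl-36.A (0.0200). These distances describe 6 libraries that share 2 treatments, and a gene with little variation is close to any other such gene.

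Chromosome IV carries 6 of the 8 elongases. The genes elo-1 and elo-7 are adjacent there, 1610 bases apart on the same strand, yet elo-1 had 23493 counts under EV and elo-7 had 4. The genes elo-5 and elo-6 are separated by 9511 bases that hold 3 protein-coding genes, of which F41H10.2 and F41H10.12 had at most 1 count in any library. The third, F41H10.1, had 57, 41 and 53 counts in EV replicates 1, 2 and 3 and 39, 19 and 46 counts in gtr-1 RNAi replicates 1, 2 and 3 (log2 fold change -0.60 ± 0.35 SE, edgeR adjusted p = 0.289). Of 12 protein-coding genes between the pair or within 10 kb of it, 10 were tested, and DESeq2 and edgeR each called 0 of them. Over all tested genes, DESeq2 called 5.81% higher and 6.61% lower, and edgeR called 0%, so 0 of 10 is near the share of all genes. Their log2 fold changes ran from -0.60 to 0.46, with a median of 0.052, below the values of both elongases.

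Exons of other genes lie opposite to parts of 4 elongases, and the strand setting of the counting is not stated. The overlap is 162 bases of elo-5 with F41H10.3, 44 bases of elo-3 with gstk-2, 120 bases of elo-4 with ufc-1 and C40H1.10, and 64 bases of elo-7 with F56H11.2. The partner of elo-5, F41H10.3, had mean levels of 193 CPM (EV) and 203 CPM (gtr-1 RNAi; log2 fold change 0.077 ± 0.046 SE, edgeR adjusted p = 0.297). No exon of another gene overlaps elo-1, elo-2, elo-6 or elo-9. How reads shared between similar elongases were counted is not stated.

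Genes linked to the branched-chain elongases, not all of them enzymes that supply or use their acids, were examined as a list of 15, all tested. DESeq2 called 6 higher and 0 lower (5.81% and 6.61% of all tested genes), and edgeR called 0. The unadjusted p of edgeR was under 0.05 for 8 higher and 1 lower (12.9% and 15.3% of all tested genes). The median log2 fold change was 0.16. The widest was that of acs-1, an acyl-CoA synthetase gene that acts with elo-5 on branched-chain acids. It had 5054, 3960 and 3151 counts in EV replicates 1, 2 and 3 and 8196, 12093 and 6626 counts in gtr-1 RNAi replicates 1, 2 and 3. That is 109 ± 22.4 against 232 ± 70.5 CPM, with no overlap (DESeq2 log2 fold change 1.11 ± 0.31 SE, adjusted p = 0.00711; edgeR adjusted p = 0.118).

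The branched-chain aminotransferase gene bcat-1, whose product starts the breakdown of leucine, isoleucine and valine, was called higher by DESeq2 as well. Its mean was 68.1 ± 8.54 CPM in the EV libraries and 106 ± 23.2 CPM in the labelled RNAi libraries (log2 fold change 0.65 ± 0.15 SE, DESeq2 adjusted p = 0.000730). Of the 4 listed subunits of the next enzyme, the branched-chain ketoacid dehydrogenase, DESeq2 called 2. For bckd-1B the log2 fold change was 0.26 ± 0.084 SE (DESeq2 adjusted p = 0.0222) and for dbt-1 it was 0.24 ± 0.079 SE (DESeq2 adjusted p = 0.0263). The subunits not called were bckd-1A (0.17 ± 0.070 SE, DESeq2 adjusted p = 0.0763) and dld-1, which other dehydrogenases share (0.0086 ± 0.056 SE, DESeq2 adjusted p = 0.947). The other 2 of the 6 calls, named after their values were seen, were the serine palmitoyltransferase genes sptl-1 (0.21 ± 0.071 SE, DESeq2 adjusted p = 0.0299) and sptl-2 (0.60 ± 0.22 SE, DESeq2 adjusted p = 0.0450). These encode the enzyme that makes the sphingoid base. Another listed gene of that enzyme, sptl-3, was not called (0.18 ± 0.077 SE, DESeq2 adjusted p = 0.0875). Nor were the ceramide synthase genes hyl-1 (0.0026 ± 0.064 SE, DESeq2 adjusted p = 0.988) and hyl-2 (-0.037 ± 0.074 SE, DESeq2 adjusted p = 0.803). The lowest value of the list was that of lagr-1, a ceramide synthase family gene, at -0.87 ± 0.26 SE by edgeR (adjusted p = 0.118), from 2.01 ± 0.497 to 1.10 ± 0.260 CPM. Without gtr-1 RNAi replicate 3, edgeR and DESeq2 each called 8 of the 15 higher and 1 lower (8.77% and 15% of all tested genes in edgeR). With another library left out, edgeR called 0 of the 15, and DESeq2 called 3 higher without EV replicate 1, 1 without gtr-1 RNAi replicate 2, and 0 without EV replicate 2, EV replicate 3 or gtr-1 RNAi replicate 1.

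Partners of the elongation cycle and enzymes that supply it formed a list of 7. DESeq2 called 2 higher and 1 lower, beside 5.81% and 6.61% of all tested genes. No gene of the list was called by edgeR, whose unadjusted p was under 0.05 for 5 higher and 1 lower (12.9% and 15.3% of all tested genes), and the median log2 fold change was 0.19. The ketoacyl reductase gene let-767, needed for branched-chain and long-chain acids, averaged 153 ± 4.26 CPM with EV and 186 ± 24.97 CPM with gtr-1 RNAi (DESeq2 log2 fold change 0.30 ± 0.097 SE, adjusted p = 0.0226). The ATP citrate lyase gene acly-1, whose product makes cytosolic acetyl-CoA, was at 192 ± 2.01 against 236 ± 30.6 CPM (DESeq2 log2 fold change 0.31 ± 0.093 SE, adjusted p = 0.0135). In contrast, the fatty acid synthase gene fasn-1, whose product makes palmitate, was at 403 ± 89.9 against 246 ± 45.5 CPM (DESeq2 log2 fold change -0.71 ± 0.24 SE, adjusted p = 0.0295). It had 13027, 14112 and 17380 counts in EV replicates 1, 2 and 3 and 8209, 8313 and 12101 counts in gtr-1 RNAi replicates 1, 2 and 3, without overlap. DESeq2 called let-767 and acly-1 only in the fit without gtr-1 RNAi replicate 3 among the 6 that left out 1 library, and fasn-1 in 3 of these 6.

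Of the 7 fatty acid desaturases, which introduce the double bonds of the acids that elo-1 and elo-2 handle, DESeq2 called 0 higher and 1 lower, beside 5.81% and 6.61% of all tested genes. For 1 higher and 2 lower the unadjusted p of edgeR was under 0.05, beside 12.9% and 15.3%. The gene called lower was fat-3, the delta-6 desaturase gene, whose product makes the substrate of ELO-1. It had 8779, 10362 and 8109 counts in EV replicates 1, 2 and 3 and 5942, 5603 and 8224 counts in gtr-1 RNAi replicates 1, 2 and 3 (DESeq2 log2 fold change -0.51 ± 0.11 SE, adjusted p = 0.000341; edgeR adjusted p = 0.113), and DESeq2 called it in all 6 fits that left out 1 library. The median log2 fold change of the desaturases was -0.098, and that of elo-2, at 1.29, lay above the highest of them, fat-4 at 0.11. Without gtr-1 RNAi replicate 3, edgeR called 2 desaturases higher and 1 lower, beside 8.77% and 15% of all tested genes. Of 9 regulators of lipid synthesis, among them the genes of the transcription factor SBP-1 and of the mediator subunit MDT-15, DESeq2 and edgeR called 0. The unadjusted p of edgeR was under 0.05 for 0 higher and 3 lower (mdt-15, nhr-49 and nhr-25), beside 12.9% and 15.3% of all tested genes. Their list had a median of -0.042. In edgeR, 1 regulator was called higher and 3 lower once gtr-1 RNAi replicate 3 was left out, beside the same 8.77% and 15%. The 5 genes whose products use long polyunsaturated acids had 0 calls by either tool and a median of 0.10. By the unadjusted p of edgeR, 1 was higher and 0 lower, beside the same 12.9% and 15.3%.

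**Figure D5:**
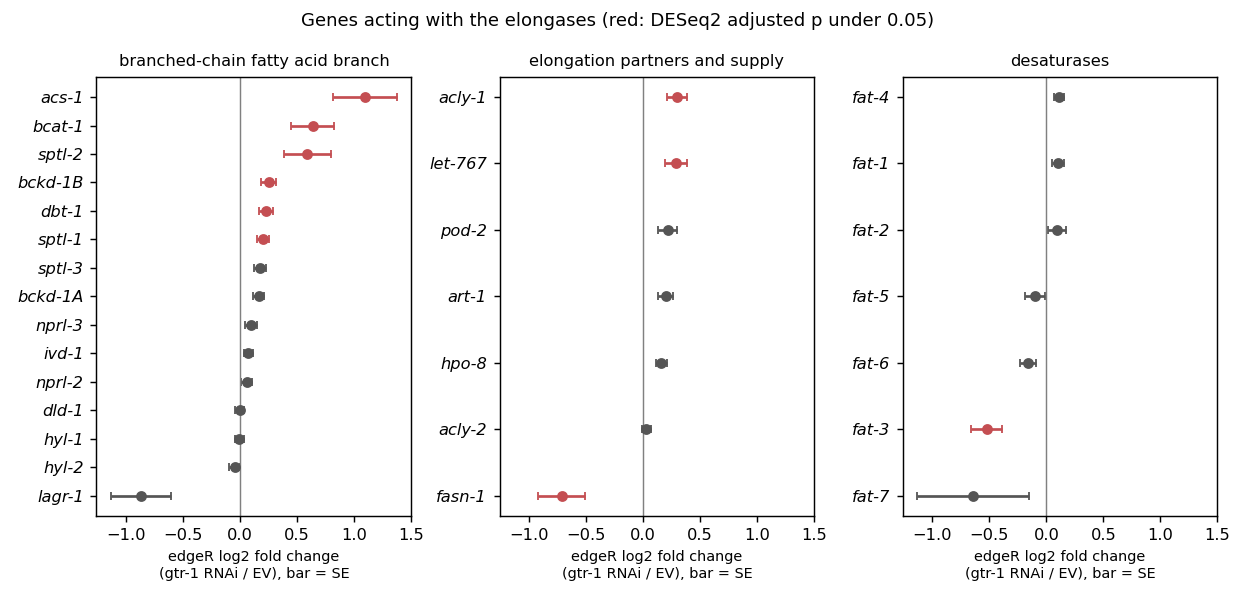
Fold change of the genes listed as linked to the elongases, as edgeR log2 fold change with its SE, in 3 lists. Red points are the 10 genes with a DESeq2 adjusted p under 0.05, of which 8 were higher (acs-1 at the top with 1.09) and 2 were lower (fasn-1 and fat-3).

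Markers of tissues that whole-worm RNA contains were detected for every tissue listed, with no marker at 0 in all libraries. In bulk RNA, more cells of a type and more RNA per cell cannot be told apart. The counts of markers called by DESeq2 below stand beside 5.81% of all tested genes called higher and 6.61% called lower. The 11 intestine markers summed to 29418 to 40966 CPM under EV and 38328 to 53400 CPM under gtr-1 RNAi, nearly all of it from the yolk protein genes vit-2 and vit-6. Without these 2 the sum was 1481, 1929 and 1393 CPM in EV replicates 1, 2 and 3 and 1608, 1481 and 1494 CPM in gtr-1 RNAi replicates 1, 2 and 3. Most of it came from asp-1 and cpr-1. The mean was lower under gtr-1 RNAi, but the groups overlapped and this direction rested on EV replicate 2. DESeq2 called 2 of the 11 higher and 0 lower, act-5 (log2 fold change 0.95 ± 0.24 SE, adjusted p = 0.00280) and vha-6 (0.62 ± 0.14 SE, adjusted p = 0.000864). Their median log2 fold change was 0.22, and the intestinal esterase gene ges-1 was at 51.1 ± 4.47 against 52.7 ± 3.55 CPM.

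The 12 germline and oocyte markers summed to 10392 to 11015 CPM under EV and 11180 to 12259 CPM under gtr-1 RNAi, with 4 called higher (oma-2, mex-5, pos-1 and spn-4), 0 called lower and a median of 0.14. Without the most abundant pair, cbd-1 and rme-2, these sums also did not overlap, at 6705 to 7181 against 7463 to 8185 CPM. The 8 hypodermis markers summed to 529 to 878 CPM under EV and 1006 to 1823 CPM under gtr-1 RNAi, with a median of 0.31, and most of the sum came from the collagen genes col-119 and col-19. Without these 2 the other 6 summed to 123 to 136 CPM under EV and to 104 to 118 CPM under gtr-1 RNAi, the opposite direction. Of the 8, col-119 and nhr-23 were called higher and elt-1 lower. Among those not called, col-19 and bli-1 lay above every EV library, and dpy-7 and elt-3 lay below every EV library. With the called genes, 4 of the 8 lay above and 3 below, beside 16.6% and 19.6% of all tested genes.

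The 7 early embryo markers, of which 5 were tested, summed to 10.1 CPM under EV and to 11.4 to 12.97 CPM under gtr-1 RNAi, with 0 called, and the sums overlapped without pes-10 and tbx-38 (3.04 to 3.35 against 3.16 to 3.81 CPM). Body wall muscle (6 markers, median 0.20), pharynx (5 markers, median -0.18) and neurons (8 markers, median -0.12) had summed levels that overlapped between the groups. Called were 0 of the muscle, 0 of the pharynx and 1 of the neuron markers, unc-31, which was lower. Without snb-1 and egl-3, the neuron markers summed to 66.04 to 72.2 CPM under EV and 51.8 to 65.99 CPM under gtr-1 RNAi. The sums without the most abundant pair were added after the values were seen. The part of tissue make-up in the elongase values was not tested.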

How the data were processed

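RNA from pools of whole worms was sequenced from stranded mRNA libraries, per the labels' protocols. Per the submitters' processing notes, STAR and HTSeq were used with WBcel235; their versions and the strand setting are not stated. The deposited table holds raw counts for 22407 of 46926 listed genes, and 14683 of these passed the filter and were tested. Its normalized values, a signal the authors made by dividing counts by 1 factor per library, were not used. Count columns headed GTOL were matched to the titles by replicate number.

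Genes kept by edgeR's filterByExpr were scaled with TMM factors and tested with the robust quasi-likelihood F test (edgeR 4.0.16, R 4.3.3), Benjamini-Hochberg adjusted over all of them, with calls under 0.05. Alternatives were DESeq2 1.42.0, voom of limma 3.58.1 with or without sample quality weights, other scalings, filters, a replicate block and leaving out each library. The SE of edgeR is the log2 fold change divided by the root of F. RPKM used merged exons of the Ensembl 115 annotation of WBcel235. Single values per library were compared with exact permutation tests. All elongases are named; of pathway lists, up to 4 genes each that DESeq2 called (edgeR called none), with the list's highest and lowest fold change allowed as values; and for each tested elongase the 2 genes nearest in pattern. The genes sptl-1, sptl-2, sptl-3, hyl-1, hyl-2, bckd-1A, dld-1, mdt-15, nhr-49, nhr-25 and the single markers were named outside this rule, after their values were seen. The members and lists were chosen with earlier results of these data known.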

Additional observations from a re-analysis of the deposited data

How the results depend on the processing

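With all 6 libraries, edgeR called 0 genes and 0 elongases, also without robust estimation, with other scalings and with other filters. DESeq2 called 853 higher and 971 lower, limma-voom 0, and limma-voom with sample quality weights 2359 and 3178, among them 4, 0 and 6 elongases higher. Whether the replicate numbers pair the libraries is not stated. Deviations from the group means correlated at 0.240, -0.107 and 0.197 for numbers 1, 2 and 3. Between libraries of unlike number they correlated at -0.326 to 0.205. These values cannot decide the question, because deviations within a group of 3 libraries depend on one another. With the replicate block, edgeR called 467 higher and 492 lower genes and 2 elongases (elo-2 and elo-9), and DESeq2 called 736 and 934 genes and 5 elongases. Leaving out gtr-1 RNAi replicate 3 gave 1308 genes higher and 2236 lower in edgeR, and 1552 and 1997 in DESeq2. Leaving out any other single library gave 0 in edgeR. In DESeq2 it gave 776 higher and 692 lower (EV replicate 1 left out), 318 and 225 (EV replicate 2), 190 and 93 (EV replicate 3), 99 and 49 (gtr-1 RNAi replicate 1) and 206 and 191 (gtr-1 RNAi replicate 2). Elongases called higher ranged from 0 to 6 over these fits. The cause was not tested. No setting called an elongase lower. The sign of every elongase fold change held in all settings except that of elo-4, which was 0.0015 (edgeR) and 0.0038 (DESeq2) without EV replicate 2. The difference in the share of elo-7 ranged from -0.0023 percentage points without EV replicate 3, through -0.00075 without gtr-1 RNAi replicate 2, to 0.00534 without EV replicate 1. The median of the users of polyunsaturated acids was -0.011 with sample quality weights, against 0.10. The summed level, the other shares and both ratios kept their direction in every setting run, none of which can pass 0.05.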
